A study of Mus musculus with 5 samples.

Results

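Fc receptors bind the constant region of antibodies, and 6 mouse genes of this family were followed here in bone marrow–derived macrophages (BMDMs). They are *Fcgr1*, *Fcgr2b*, *Fcgr3* and *Fcgr4*, which encode the receptors for IgG on the macrophage surface, *Fcer1g*, which encodes the signaling chain of the activating receptors, and *Fcgrt*, which encodes the heavy chain of the neonatal Fc receptor. The genes were taken as a list of symbols, and all 6 of 6 were found among the 17058 genes listed in at least 1 library. The macrophages came from Balb/c mice and were cocultured for 48 hours with 4T1 cells, a mouse mammary carcinoma line. In 2 libraries the 4T1 cells were WT, and in 3 libraries they were an ADAM17 knock-out that carries the designation 2.8, called *Adam17*-/- below. By the study's methods, a porous membrane separated the cancer cells from the macrophages and knock-out cells were made by CRISPR/Cas9 and expanded from single cells, so the loss of *Adam17*, a sheddase of membrane proteins, was in the cancer cells. Because the designation is the same in all 3 of these libraries, loss of *Adam17* and anything else particular to that knock-out line cannot be told apart. The age of the mice behind each library is not given in the labels.

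Activating Fc receptors let macrophages bind, engulf and kill targets coated with antibody. FcγRI (*Fcgr1*), the high-affinity IgG receptor, FcγRIII (*Fcgr3*) and FcγRIV (*Fcgr4*) signal through the FcR gamma chain (*Fcer1g*), whose immunoreceptor tyrosine-based activation motif (ITAM) is phosphorylated by Src family kinases and then binds the kinase Syk. FcγRIIB (*Fcgr2b*) binds the same ligands but carries an inhibitory motif (ITIM), which recruits the phosphatase SHIP1 (*Inpp5d*), so the balance between both classes sets the threshold for phagocytosis. The neonatal receptor works apart from them: with its partner beta-2 microglobulin it binds IgG and albumin in acidic endosomes and returns them to the surface.

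Both signaling motifs and the stretch that separates the *Fcgr2b* transcripts are shown, because they mark what each gene contributes. The sequences were read from GENCODE transcripts of GRCm38, on the coding strand from 5′ to 3′. The ITAM of *Fcer1g*, residues 65 to 79 of 86 (chr1:171229889-171230072, minus strand, interrupted by an intron), and the ITIM of *Fcgr2b*, residues 270 to 275 of 293 in the shorter form (chr1:170961071-170961088, minus strand), are given with the tyrosine codons in capitals. The third sequence is the exon of 141 bases and 47 codons that only the longer *Fcgr2b* transcript holds (chr1:170963325-170963465, minus strand), and it encodes an insert in the cytoplasmic tail that is known to limit internalization of the receptor.
Fcer1g ITAM: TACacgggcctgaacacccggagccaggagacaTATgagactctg
Fcgr2b ITIM: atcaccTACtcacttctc
Fcgr2b additional exon: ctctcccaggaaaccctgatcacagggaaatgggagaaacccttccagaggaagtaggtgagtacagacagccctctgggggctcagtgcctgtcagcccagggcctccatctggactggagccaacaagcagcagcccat

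The 6 genes lie in 3 places of the GRCm38 genome. *Fcgr2b* (Entrez Gene 14130, 170960558 to 170976071), *Fcgr4* (246256, 171018926 to 171029761), *Fcgr3* (14131, 171051169 to 171065915) and *Fcer1g* (14127, 171229572 to 171234349) share chromosome 1. *Fcgr1* (14129) lies on chromosome 3, from 96282909 to 96293969, and *Fcgrt* (14132) on chromosome 7, from 45092993 to 45103822. *Fcgr2b* and *Fcgr3* are close copies over their extracellular part. Their transcripts have an identical run of 129 coding bases. Of the windows of 50 bases in each transcript 166 of 1413 (11.7%) in *Fcgr2b* and 166 of 1298 (12.8%) in *Fcgr3* occur in the other. No such window was shared by any other pair of the 6 genes. The run lies at chr1:170966674-170968081 in *Fcgr2b* and at chr1:171054167-171057792 in *Fcgr3*, both on the minus strand and across an intron.
Fcgr2b and Fcgr3 shared run: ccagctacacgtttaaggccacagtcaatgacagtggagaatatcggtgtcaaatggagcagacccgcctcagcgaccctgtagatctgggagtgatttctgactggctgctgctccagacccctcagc
The deposited expected counts of *Fcgr2b* and *Fcgr3* were not whole numbers, whereas those of the other 4 genes were whole within 0.005, so the division of reads between *Fcgr2b* and *Fcgr3* is an estimate.

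The libraries held 14658694 to 20788373 counts, so that 3 counts correspond to 0.157 to 0.197 CPM (counts scaled to the library total after TMM normalization), and all 6 genes lay far above that floor. Macrophage identity was checked against 7 marker genes, all of which were expressed, with summed levels of 27348 to 28118 CPM in the WT and 17744 to 19682 CPM in the *Adam17*-/- cocultures. The level of *Adam17* in the macrophages does not check the knock-out, which was made in the other cell type. It was 199 ± 1.51 CPM (SD, n = 2) in WT and 159 ± 6.32 CPM (n = 3) in *Adam17*-/- cocultures, a log2 fold change of -0.32 (SE 0.078, adjusted p = 0.0129, edgeR), which did not pass in 7 of 14 alternative fits.

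The first question was how much of each Fc receptor transcript the bulk RNA of the macrophage cultures held. FPKM, which divides fragments by transcript length and library size, allows genes to be compared per length. The FcR gamma chain and the low-affinity receptors made up the upper tier, while *Fcgr1*, *Fcgr4* and *Fcgrt* lay several-fold lower. *Fcer1g* was at 514 and 567 FPKM in WT replicates 1 and 2 and at 540, 510 and 532 FPKM in *Adam17*-/- replicates 1, 2 and 3. *Fcgr3* was at 474 and 546 FPKM in WT and at 566, 510 and 549 FPKM in *Adam17*-/- cocultures. *Fcgr2b* was at 418 and 459 FPKM in WT and at 465, 442 and 407 FPKM in *Adam17*-/- cocultures. In each of these 3 genes the ranges of both groups overlapped. The ranges of *Fcer1g* and *Fcgr3* also overlapped each other within each group, so their order is not resolved, and both lay above *Fcgr2b* in each group. Among all 12576 genes tested, only 83 had a higher mean FPKM than *Fcer1g*, 85 than *Fcgr3* and 113 than *Fcgr2b*.

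In the lower tier, *Fcgr1* was at 109 and 118 FPKM in WT and at 83.3, 81.7 and 92.3 FPKM in *Adam17*-/- cocultures. Every *Adam17*-/- library was below both WT libraries. *Fcgr4* was at 103 and 123 FPKM in WT and at 111, 101 and 115 FPKM in *Adam17*-/- cocultures, and *Fcgrt* was at 79.0 and 75.6 FPKM in WT and at 79.3, 74.9 and 80.4 FPKM in *Adam17*-/- cocultures. The ranges of both groups overlapped for both genes. The order within this tier differed between the groups: with WT 4T1 cells, the ranges of *Fcgr1* and *Fcgr4* overlapped (113.5 ± 6.82 and 113.2 ± 13.8 FPKM, SD, n = 2), whereas with *Adam17*-/- 4T1 cells *Fcgr1* (85.8 ± 5.71 FPKM, n = 3) lay below *Fcgr4* (109 ± 7.26 FPKM) with ranges apart. *Fcgrt* was the lowest of the 6 in either group. Even so, only 560 genes had a higher mean FPKM than *Fcgr4*, 642 than *Fcgr1* and 847 than *Fcgrt*.

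**Figure D1:**
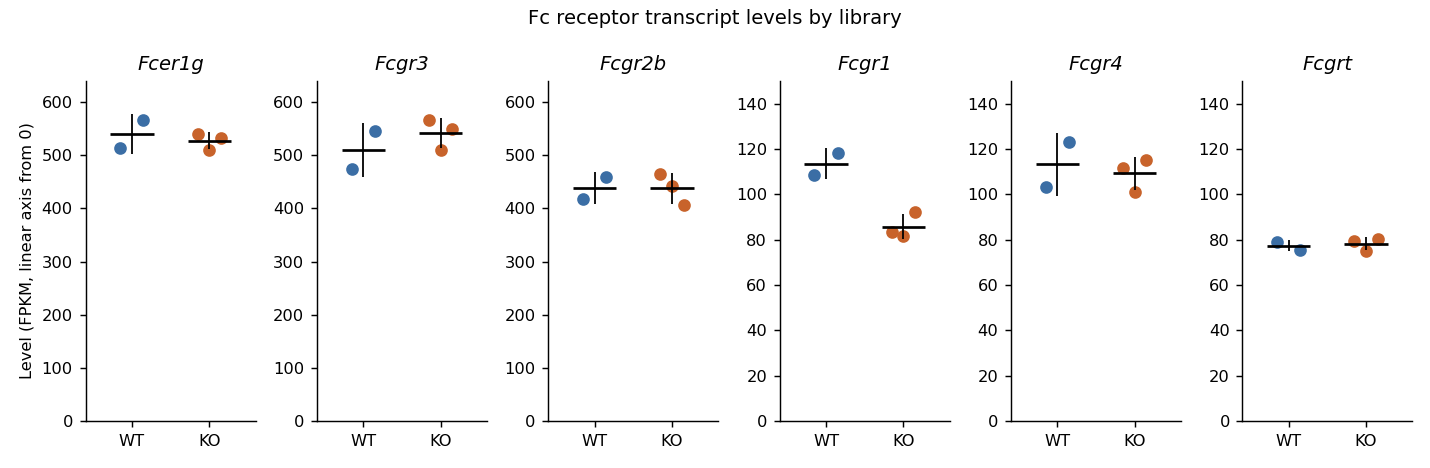
FPKM (linear axes from 0; the left 3 panels reach higher than the right 3) of each Fc receptor gene in macrophages cocultured with WT (blue, n = 2) or *Adam17*-/- (KO, orange, n = 3) 4T1 cells; points are libraries, horizontal lines means and vertical lines SD. The *Adam17*-/- points of *Fcgr1*, at 81.7 to 92.3 FPKM, all lie below the WT points at 109 and 118, and the points of both groups overlap in the other 5 panels.

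The next question was which of the genes differed between the cocultures. Of the 6 genes, 1 passed the test and 5 did not. *Fcgr1*, the high-affinity IgG receptor, fell by 31.7% in macrophages cocultured with *Adam17*-/- 4T1 cells. It was at 299 and 311 CPM in the WT libraries (mean 305 ± 8.50, SD, n = 2) and at 201, 199 and 225 CPM in the *Adam17*-/- libraries (208 ± 14.6, n = 3), and the groups did not overlap. The log2 fold change was -0.55 (SE 0.085, 95% interval -0.74 to -0.36, adjusted p = 0.00182, edgeR's quasi-likelihood test), which is a fold of 0.683 (0.599 to 0.779). *Fcgr1* passed in all 14 alternative fits, with log2 fold changes of -0.61 to -0.40 and adjusted p-values of 1.01e-06 to 0.0214. A gene passed when its p, adjusted by the Benjamini-Hochberg method over all genes, was at most 0.05, which 31.7% of the 12576 genes tested reached in either direction, 16.8% lower and 14.9% higher in the *Adam17*-/- cocultures, so that 1 of 6 Fc receptor genes is no more than the background. None of the 6 also moved by 1 or more on the log2 scale, as 4.22% of the genes tested did. As the libraries are of bulk RNA, less RNA per cell and fewer cells of a type cannot be told apart.

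The other IgG receptors did not pass. *Fcgr4*, the activating receptor of intermediate affinity, was at 133 and 151 CPM in WT and at 126, 115 and 132 CPM in *Adam17*-/- cocultures, with a log2 fold change of -0.20 (SE 0.093, 95% interval -0.40 to 0.01, adjusted p = 0.136, edgeR). *Fcgr2b*, the inhibitory receptor, was at 614 and 646 CPM in WT and at 599, 575 and 531 CPM in *Adam17*-/- cocultures, with a log2 fold change of -0.15 (SE 0.086, interval -0.34 to 0.04, adjusted p = 0.213, edgeR). For both genes every *Adam17*-/- library lay below both WT libraries in CPM, although not in FPKM. *Fcgr3*, the low-affinity activating receptor, was at 664 and 730 CPM in WT and at 694, 631 and 682 CPM in *Adam17*-/- cocultures. Its groups overlapped, with a log2 fold change of -0.06 (SE 0.087, interval -0.25 to 0.14, adjusted p = 0.637, edgeR). These intervals leave room for *Fcgr4* to be as low as 0.755 times the WT level, and bound the change of *Fcgr3* between 0.839 and 1.10 times the WT level.

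The shared signaling chain and the neonatal receptor did not pass either. *Fcer1g* was at 344 and 363 CPM in WT and at 317, 301 and 316 CPM in *Adam17*-/- cocultures (log2 fold change -0.18, SE 0.078, 95% interval -0.36 to -0.01, adjusted p = 0.102, edgeR). Its unadjusted interval lay below 0 and its groups did not overlap in CPM, but the adjusted p missed the threshold. *Fcgrt* was at 144 and 131 CPM in WT and at 126, 121 and 130 CPM in *Adam17*-/- cocultures (log2 fold change -0.13, SE 0.083, interval -0.32 to 0.05, adjusted p = 0.249, edgeR). In CPM, 5 of the 6 genes had groups that did not overlap, *Fcgr3* being the exception, against 58.0% of all genes tested. Leaving out WT replicate 1 brought *Fcgr4* (adjusted p = 0.0181) and *Fcer1g* (adjusted p = 0.0351) past the threshold, and leaving out WT replicate 2 did so for *Fcgrt* (adjusted p = 0.0468, edgeR). These fits assume that the remaining WT library varies like the other group.

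The size of these differences depended on how the libraries were scaled, since the TMM factors were 0.920 and 0.963 for the WT and 1.04 to 1.05 for the *Adam17*-/- libraries. With library size only, the median over all genes moved from 0.01 to 0.16 on the log2 scale, and the Fc receptor genes moved with it. *Fcgr3* then had a log2 fold change of 0.09 and *Fcgrt* of 0.02, both turned in sign and neither past the threshold, and *Fcgr2b* was at -0.0019. *Fcgr1* kept a log2 fold change of -0.40 (adjusted p = 0.00842, edgeR). Relative to the median of all genes in the same fit, *Fcgr1* lay 0.51 to 0.62 lower over all 14 alternatives, *Fcer1g* 0.15 to 0.24 lower, *Fcgr2b* 0.11 to 0.21 lower, *Fcgr4* 0.11 to 0.30 lower and *Fcgrt* 0.08 to 0.20 lower. *Fcgr3* lay between 0.14 lower and 0.0035 higher.

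**Figure D2:**
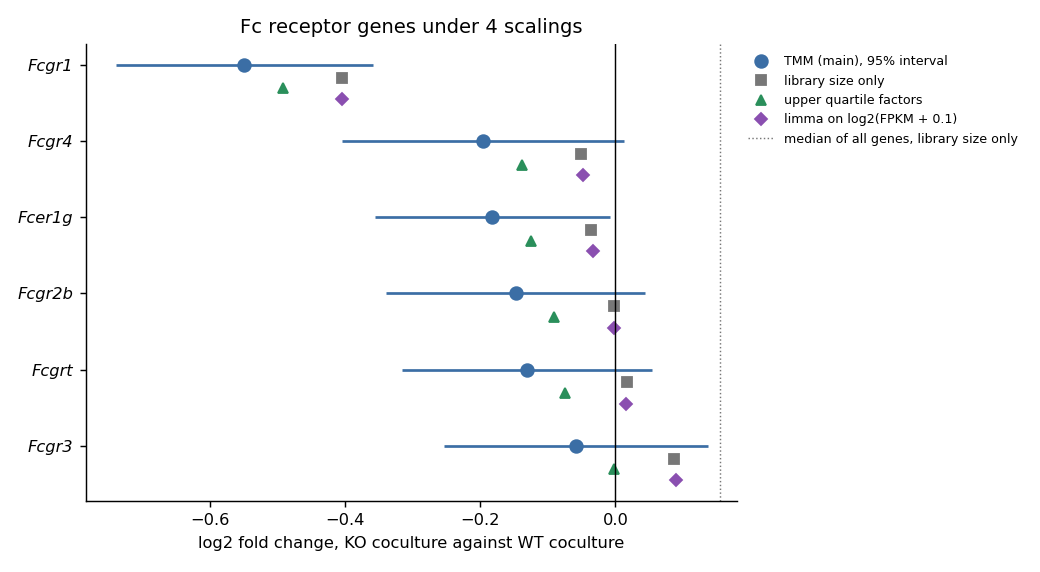
Log2 fold change of each Fc receptor gene, *Adam17*-/- against WT coculture, with TMM factors (blue circles, lines are 95% intervals) and under 3 other scalings; the solid line marks 0 and the dotted line the median of all genes with library size only. *Fcgr1* stays between -0.55 and -0.40 under all 4 scalings, while *Fcgr3* and *Fcgrt* cross 0 with library size only and with limma.

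Ratios between receptors within a library need no scaling between libraries, and they were compared without a test, since 2 against 3 values cannot give an exact permutation p under 0.1. FPKM values were used. The ratio of *Fcgr1* to the inhibitory *Fcgr2b* was 0.260 and 0.258 in WT cocultures and 0.179, 0.185 and 0.227 in *Adam17*-/- cocultures, which is 0.760 times the WT mean, and the groups did not overlap. *Fcgr3* to *Fcgr2b* was 1.14 and 1.19 in WT and 1.22, 1.15 and 1.35 in *Adam17*-/- cocultures, and *Fcgr4* to *Fcgr2b* was 0.248 and 0.268 against 0.240, 0.229 and 0.283. The groups overlapped in both. The sum of the 3 activating receptors over *Fcgr2b*, a summary of the balance between activation and inhibition, was 1.68 ± 0.0491 (SD, n = 2) in WT and 1.69 ± 0.151 (n = 3) in *Adam17*-/- cocultures and overlapped as well. The ratio of *Fcer1g* to that sum was 0.735 ± 0.0201 and 0.717 ± 0.0168, again overlapping.

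The makeup of the activating receptors was described by the share of each in their FPKM sum, without a test. *Fcgr1* held 15.8% and 15.04% of the activating FPKM sum in WT cocultures and 10.95%, 11.8% and 12.2% in *Adam17*-/- cocultures. *Fcgr3* held 69.1% and 69.3% in WT and 74.4%, 73.6% and 72.6% in *Adam17*-/- cocultures, so that for each gene the groups did not overlap. *Fcgr4* held 15.1% and 15.6% against 14.6%, 14.6% and 15.2%, which overlapped. The 3 shares add up to the whole and are not independent of each other. *Fcgr1* to *Fcgr3* was 0.229 and 0.217 in WT and 0.147, 0.160 and 0.168 in *Adam17*-/- cocultures.

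**Figure D3:**
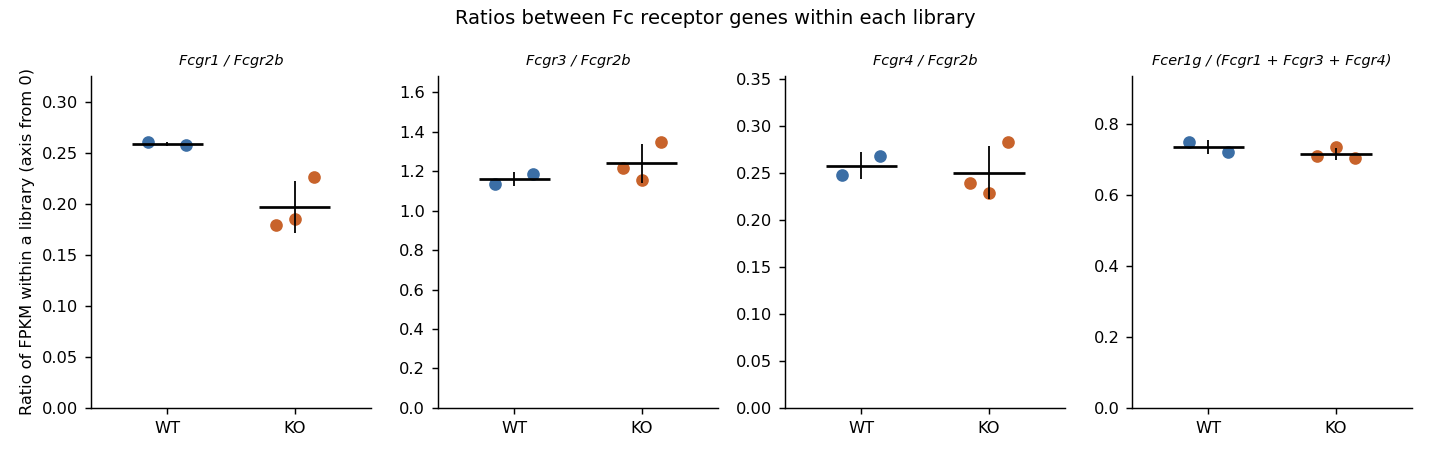
Ratios of FPKM between Fc receptor genes within each library (linear axes from 0), for WT (blue, n = 2) and *Adam17*-/- (KO, orange, n = 3) cocultures; lines are mean and SD. For *Fcgr1* over *Fcgr2b* the *Adam17*-/- points, at 0.179 to 0.227, lie below both WT points at 0.260 and 0.258, and in the other 3 panels the groups overlap.

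At the level of transcripts, 5 of the genes had 1 transcript listed each and *Fcgr2b* had 2. Of these 7 transcripts, that of *Fcgr1* passed (log2 fold change -0.53, SE 0.081, adjusted p = 0.0345, edgeR over 17618 transcripts, of which 7.59% passed in either direction). That call was lost with library size only, with the replicate block and with any replicate left out. The shorter *Fcgr2b* transcript, which lacks the exon printed above, held nearly all counts of the gene. The longer one was below the 5% set for naming a transcript and was looked at after its values had been seen, because its insert changes the receptor tail. It held 2.53% (95% Wilson interval 2.25 to 2.82) and 2.74% (2.46 to 3.05) of the *Fcgr2b* counts in WT replicates 1 and 2. In *Adam17*-/- replicates 1, 2 and 3 it held 3.06% (2.75 to 3.40), 2.66% (2.34 to 3.01) and 2.16% (1.89 to 2.46). The intervals cover counting error only. The *Adam17*-/- replicates spread more widely than the WT replicates and enclosed them, so no difference between the groups was detectable. The log2 fold changes were -0.12 for the longer (SE 0.225, adjusted p = 0.778) and -0.12 for the shorter transcript (SE 0.073, adjusted p = 0.338, edgeR).

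**Figure D4:**
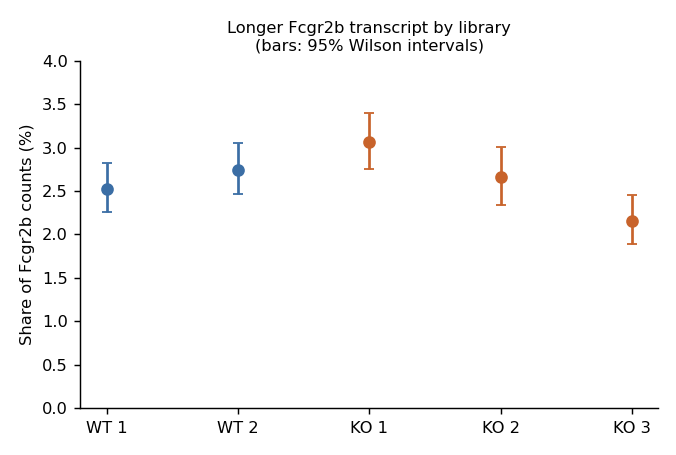
Share of *Fcgr2b* counts (percent, linear axis from 0) in the longer transcript, per library, with 95% Wilson intervals; WT libraries in blue, *Adam17*-/- (KO) libraries in orange. The *Adam17*-/- libraries run from 2.16% to 3.06% and enclose the WT libraries at 2.53% and 2.74%.

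Profiles over the 5 libraries were compared by the Euclidean distance between centred log2 CPM values, given as a description. *Fcgr1* stood farther from the other Fc receptor genes (0.410 to 0.561) than those 5 stood from each other (0.115 for *Fcgr4* and *Fcer1g* to 0.246 for *Fcgr2b* and *Fcgr4*). Among genes outside the family, the nearest to *Fcgr1* were *Pdia3*, a protein disulfide isomerase of the endoplasmic reticulum (0.0338), and *Abcc4*, a membrane transporter (0.0590). The nearest to *Fcgr2b* were *Ing5* and *Nipsnap3b*, to *Fcgr3* *Tspyl1* and *Tmem135*, to *Fcgr4* *Mtx2* and *Plrg1*, to *Fcer1g* *Morf4l2* and *Pitpna*, and to *Fcgrt* *Ogfr* and *Stat3*, at distances of 0.0160 to 0.0489.

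Transcription of activating receptors such as *Fcgr1* and *Fcgr4* is known to be driven by interferon gamma, through interferon gamma–activated sites (GAS) in promoters, and the factor PU.1 (*Spi1*) is known to drive many myeloid genes, while the complement C5a receptor (*C5ar1*) is known to shift macrophages toward activating receptors. The list of 10 such regulators was chosen with earlier results of these data known. Of these 10 genes, 4 passed lower, 1 higher and 5 did not pass. That is 5 of 10 passing, beside 31.7% of all genes, with a median log2 fold change of -0.19 against 0.01. With the replicate block, or without *Adam17*-/- replicate 1 or 2, 2 passed lower and 0 higher, and with library size only 2 passed in each direction. *Spi1* was at 460 and 357 CPM in WT and at 273, 276 and 296 CPM in *Adam17*-/- cocultures (log2 fold change -0.53, SE 0.109, adjusted p = 0.00626, edgeR), and every *Adam17*-/- library lay below both WT libraries. *C5ar1* was at 693 and 604 CPM in WT and at 341, 349 and 366 CPM in *Adam17*-/- cocultures, and fell by 0.88 on the log2 scale (adjusted p = 0.000381, edgeR). Both passed in all 14 alternatives, but the log2 fold change of *Spi1* was -0.35 without WT replicate 1 and -0.71 without WT replicate 2. *Jak2*, a kinase of the interferon gamma receptor, rose by 0.41 (adjusted p = 0.0166, edgeR) but lost the threshold in 4 of 14 alternatives, and was at 0.25 without WT replicate 1. Its partner kinase *Jak1* (-0.27, adjusted p = 0.0295) and the receptor chain *Ifngr1* (-0.32, adjusted p = 0.0135, edgeR) passed lower, in 6 and 8 of 14 alternatives. The other receptor chain, *Ifngr2*, did not pass (-0.16, adjusted p = 0.154, edgeR).

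Promoter windows, the 250 bases before a RefSeq start on GRCm38.p6, were matched for all 6 genes (7 windows, *Fcgr3* having 2). They are shown for *Fcgr1*, which fell, beside *Fcgr3* and *Fcgr4*, the activating receptors that did not pass, with motif matches in capitals. The letters searched on both strands were TTCNNNGAA (GAS) and GAGGAA (the core bound by PU.1), and no matches overlapped within a window.
Fcgr1 (chr3:96293970-96294219, minus strand): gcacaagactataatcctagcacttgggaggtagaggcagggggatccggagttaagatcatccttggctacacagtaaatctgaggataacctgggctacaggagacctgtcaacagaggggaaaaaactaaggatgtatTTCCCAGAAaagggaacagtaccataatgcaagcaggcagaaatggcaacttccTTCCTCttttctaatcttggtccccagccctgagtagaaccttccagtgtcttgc
Fcgr3 (chr1:171059395-171059644, minus strand): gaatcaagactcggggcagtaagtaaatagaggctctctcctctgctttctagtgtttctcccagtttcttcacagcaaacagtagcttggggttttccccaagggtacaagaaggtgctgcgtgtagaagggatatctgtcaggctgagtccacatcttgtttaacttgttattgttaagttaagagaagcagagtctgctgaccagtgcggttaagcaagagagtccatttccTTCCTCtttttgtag
Fcgr4 (chr1:171018676-171018925, plus strand): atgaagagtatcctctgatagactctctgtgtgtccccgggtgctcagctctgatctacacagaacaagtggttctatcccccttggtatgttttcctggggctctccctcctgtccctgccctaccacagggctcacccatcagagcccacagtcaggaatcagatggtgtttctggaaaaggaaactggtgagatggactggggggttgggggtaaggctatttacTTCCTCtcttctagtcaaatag
The GAS letters occurred in 1 of the 7 windows, that of *Fcgr1* (TTCCCAGAA, 109 to 101 bases before the start), and in 7.02% of 32851 promoter windows. The PU.1 core occurred in 4 of the 7 windows, each time as TTCCTC on the printed strand, in *Fcgr1* (55 to 50 bases before the start), *Fcgr3* (15 to 10) and *Fcgr4* (22 to 17), and in 23.25% of all windows. Both *Fcgr3* windows hold the same site, so these are 3 sites in 3 of the 6 genes. *Fcgr1* and *Fcgr3* shared an identical run of 14 bases, TTCCTTCCTCTTTT, which contains the PU.1 core and which 3 of the 32851 windows held on either strand, these included. A match is a description of the letters and not evidence of binding.

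Genes linked to Fc receptors by family, signaling, recycling or transcription were followed on 7 lists with 80 tested genes. The lists were chosen with earlier results of these data known, so their shares beside those of all genes are descriptions and not independent tests. Of the 80 genes, 33 passed lower and 3 higher (45.0%, median log2 fold change -0.23), beside 31.7% of all genes tested. With library size only, 19 passed lower and 7 higher. Of the 36 that passed, 16 did so in all 14 alternatives, and 0 had the other sign in any. Macrophage markers moved in the same direction, 5 of 7 passing lower and 0 higher (median -0.64), and 7 of 8 neutrophil markers passed higher (median 1.80), with summed levels of 311 to 377 CPM in WT and 1107 to 1280 CPM in *Adam17*-/- cocultures. Their part in the Fc receptor results was not tested. The lists of other cells held less: the summed levels over all libraries were 1.84 to 4.74 CPM for B cell, 0.0541 to 0.383 for NK and T cell and 10.99 to 13.8 CPM for mammary epithelial markers. Those of 3 further lists were higher in every *Adam17*-/- library than in either WT library. They were 4.76 to 6.80 CPM in WT and 13.3 to 18.8 CPM in *Adam17*-/- cocultures for eosinophil, 5.996 to 8.77 and 12.5 to 16.1 CPM for dendritic cell, and 1.62 to 2.93 and 3.83 to 5.07 CPM for mast cell and basophil markers. *Ighm*, *Mcpt4*, *Cma1*, *Gzma*, *Cd3g* and *Krt5* were listed in no library.

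**Figure D5:**
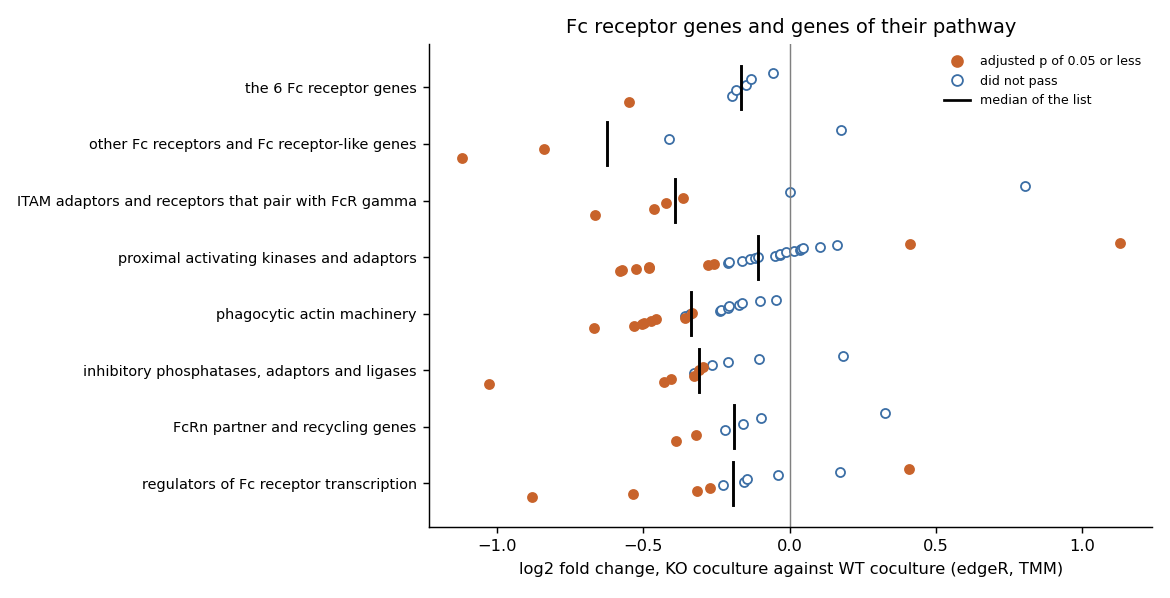
Log2 fold change, *Adam17*-/- against WT coculture, of the 6 Fc receptor genes and of each tested gene on the 7 pathway lists; filled points passed the test, open points did not, and black bars are list medians. The 18 phagocytic actin genes all lie below 0 (16 with library size only), with 8 filled, whereas the kinase list spreads from -0.58 to 1.13 around a median of -0.11 (0.04 with library size only).

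Beyond the 6 genes, few Fc receptors were expressed. Of 13 other Fc receptors and Fc receptor–like genes, 4 were tested, 2 passed lower and 2 did not pass (median -0.63), with 16.8% of all genes passing lower. *Fcrls*, an Fc receptor–like scavenger receptor, was at 64.1 and 43.2 CPM in WT and at 29.1, 31.4 and 29.4 CPM in *Adam17*-/- cocultures (log2 fold change -0.84, SE 0.147, adjusted p = 0.00326, edgeR). *Fcrl1* fell by 1.12 on the log2 scale (adjusted p = 0.029, edgeR) but was rare, at 1.41 to 1.99 CPM in WT and 0.592 to 0.953 CPM in *Adam17*-/- cocultures, and lost the threshold in 3 of the 12 alternatives that gave it an adjusted p. *Fcrlb*, at -0.41 (adjusted p = 0.142), and *Trim21*, the cytosolic antibody receptor, at 0.17 on the log2 scale (adjusted p = 0.241, edgeR), did not pass. Both moved with the WT library left out: without WT replicate 2 they passed, at -0.68 (adjusted p = 0.00952) and 0.32 (adjusted p = 0.0223, edgeR), and without WT replicate 1 they were at -0.085 and 0.037. The call of *Fcrl1* was lost without WT replicate 1 or *Adam17*-/- replicate 1 or 2, while that of *Fcrls* held with any replicate left out, at -0.53 without WT replicate 1 and -1.10 without WT replicate 2. *Fcer1a* and *Ms4a2*, the other chains of the IgE receptor that *Fcer1g* serves in mast cells, had at most 3 counts in any library, and so had *Fcer2a*, *Fcamr* and *Pigr*.

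Another list held signaling adaptors, and receptors that pair with the FcR gamma chain. Of its 6 tested genes, 4 passed lower and 2 did not pass (median -0.39), which is 66.7% beside 16.8% of all genes tested. Only 2 passed with library size only, in the limma fits, with the replicate block or without *Adam17*-/- replicate 1 or 3. *Tyrobp*, which encodes the ITAM adaptor DAP12, was at 488 and 471 CPM in WT and at 350, 329 and 365 CPM in *Adam17*-/- cocultures (log2 fold change -0.46, SE 0.081, adjusted p = 0.00332, edgeR). Its groups did not overlap. *Clec4n*, a C-type lectin that signals through the gamma chain, fell by 0.66 (adjusted p = 0.00114) and *Clec4e*, another such lectin, by 0.42 (adjusted p = 0.00947, edgeR), the latter losing the threshold in 7 of 14 alternatives.

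The kinases and adaptors just below the receptors showed a share near the background: of 25 tested, 7 passed lower, 2 higher and 16 did not pass (36.0% against 31.7% of all genes; median -0.11). With library size only, 4 passed in each direction and the median turned to 0.04. Leaving out WT replicate 2 brought 11 past the threshold lower, and leaving out *Adam17*-/- replicate 1 or 2 left 4. *Syk*, the kinase that binds the phosphorylated ITAM, was at 623 and 542 CPM in WT and at 616, 654 and 607 CPM in *Adam17*-/- cocultures and did not pass (log2 fold change 0.10, SE 0.090, adjusted p = 0.405, edgeR), although it did so in 3 of 14 alternatives. *Pik3ap1*, an adaptor that recruits PI3 kinase, fell by 0.58 (adjusted p = 0.0014, edgeR) and *Vav3*, a guanine nucleotide exchange factor, by 0.57 (adjusted p = 0.00513, edgeR). *Lat*, an adaptor best known from T cells, rose by 1.13 on the log2 scale (adjusted p = 0.0269, edgeR) from 1.19 to 2.64 CPM on average. The call for *Lat* was lost in 3 of 14 alternatives and that for *Vav3*, which was at -0.38 without WT replicate 2, in 2.

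On the phagocytic actin list, all 18 genes had a negative log2 fold change (16 of 18 with library size only), beside 49.0% of all genes. Of the 18, 8 passed lower and 10 did not pass (median -0.34), a share of 44.4% beside 16.8% of all genes passing lower. Without WT replicate 1, 13 passed, and 6 did so with library size only or without *Adam17*-/- replicate 1. *Cfl1*, which encodes the actin-severing protein cofilin, was at 996 and 910 CPM in WT and at 615, 570 and 615 CPM in *Adam17*-/- cocultures (log2 fold change -0.67, SE 0.085, adjusted p = 0.000842, edgeR). *Arpc1b*, a subunit of the Arp2/3 complex that nucleates branched actin, fell by 0.53 (adjusted p = 0.00201) and *Dock2*, an activator of Rac, by 0.50 (adjusted p = 0.00155, edgeR). All 3 passed in every alternative.

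Of 11 phosphatases, adaptors and ligases that restrain Fc receptor signaling, 6 passed lower and 5 did not pass (median -0.31), so 54.5% were lower, beside 16.8% of all genes. The number that passed lower was 3 without any one of the *Adam17*-/- replicates, 2 with the replicate block, and 3 beside 1 higher with library size only. *Dok2*, an adaptor that dampens Ras signaling, was at 125 and 101 CPM in WT and at 58.7, 51.1 and 56.2 CPM in *Adam17*-/- cocultures (log2 fold change -1.03, SE 0.107, adjusted p = 0.00043, edgeR), and its relative *Dok1* fell by 0.43 (adjusted p = 0.00438, edgeR). *Inpp5d*, the phosphatase recruited to the *Fcgr2b* ITIM printed above, was at 640 and 586 CPM in WT and at 450, 477 and 461 CPM in *Adam17*-/- cocultures (log2 fold change -0.41, SE 0.082, adjusted p = 0.00594, edgeR), and its call was lost in 1 of 14 alternatives. *Ptpn6*, which encodes the phosphatase SHP1, fell by 0.29 (adjusted p = 0.0249, edgeR) but passed in only 6 of 14 alternatives.

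Of 6 tested genes that serve the neonatal receptor, 2 passed lower and 4 did not pass (median -0.19). That is 33.3%, beside 16.8% of all genes tested that passed lower and 31.7% that passed in either direction. None passed with library size only, in the limma fits, with the replicate block or without *Adam17*-/- replicate 1 or 2. *B2m*, the light chain that *Fcgrt* needs to leave the endoplasmic reticulum, was at 1929 and 1948 CPM in WT and at 1458, 1531 and 1668 CPM in *Adam17*-/- cocultures (log2 fold change -0.32, SE 0.090, adjusted p = 0.0244, edgeR). The call was lost in 7 of 14 alternatives. *Snx4*, a sorting nexin of recycling endosomes, fell by 0.39 (adjusted p = 0.00957, edgeR), a call lost in 6 of 14 alternatives.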

How the data were processed

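The 5 BMDM libraries (2 WT, 3 *Adam17*-/- cocultures) were grouped by their labels. The authors aligned paired-end BGISEQ-500 reads to GRCm38 with HISAT. Per the labels, they used Bowtie2 and RSEM (versions not given in the sources used here). For each transcript the authors deposited an expected count, which is not normalized and divides reads among matching transcripts, and an FPKM value, normalized to length and library size. Transcripts with FPKM below 0.01 are not listed and were taken as 0. Whether counting used strand is not stated. Expected counts were summed per gene (16.0% to 16.8% not whole), rounded, which moved no count by over 0.5, and fitted in R 4.3.3 with edgeR 4.0.16 (filterByExpr, TMM, glmQLFit, glmQLFTest), a procedure checked on simulated data. SE was the log2 fold change over the root of F. Per-library log2 CPM used a prior count of 2. Nothing in the labels says that replicates were separate cultures, so p-values measure the spread between these samples.

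Genes named were the 6 receptors, transcripts with at least 5% of a gene, *Adam17*, other tested Fc receptors, 8 set genes (*B2m*, *Syk*, *Inpp5d*, *Ptpn6*, *Tyrobp*, *Spi1*, *C5ar1* and 1 that is not reported here), the 3 largest passing changes per pathway list, the 2 genes nearest each receptor in profile, passing genes within 100 kb of the chromosome 1 receptors, and markers that passed or were at 0. *Ifngr1*, *Ifngr2* and *Jak1* were named later, after their values had been seen. The members and lists were chosen with earlier results of these data known. Alternatives were DESeq2 1.42.0 and its size factors, upper quartile factors, library size only, no filter, at least 10 counts in every library, limma 3.58.1 on log2(FPKM + 0.1) and log2(FPKM + 1), other thresholds, a replicate block and each replicate left out. Symbols and coordinates came from RefSeq GRCm38.p6 (17015 of 17058 gene IDs matched) and transcripts from GENCODE. Figures used matplotlib 3.10.9.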

Additional observations from a re-analysis of the deposited data

How the results depend on the processing

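*Fcgr1* kept its direction and its side of the threshold under all 14 alternatives. *Fcgr3* turned to log2 fold changes of 0.087 with library size only and 0.0893 and 0.0891 with limma on log2(FPKM + 0.1) and log2(FPKM + 1), and *Fcgrt* to 0.0165, 0.0163 and 0.0162, none past the threshold. The median of all genes was 0.11 to 0.16 in these fits, against 0.01. Of the *Fcgr2b* transcripts, the longer turned to 0.00088 with library size only and 0.0372 with the replicate block. With replicates left out in turn, log2 fold changes ranged from -0.13 to 0.0091 for *Fcgr3*, -0.19 to -0.0823 for *Fcgr2b*, -0.29 to -0.10 for *Fcgr4*, -0.22 to -0.14 for *Fcer1g*, -0.20 to -0.0699 for *Fcgrt* and -0.29 to 0.0418 for the longer *Fcgr2b* transcript.

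The number of Fc receptor genes that passed was 1, and 1 to 3 with replicates left out (3 without WT replicate 1). In the edgeR fit it was 0 at the thresholds of the study's methods (adjusted p under 0.001 and a log2 fold change over 0.25) and with a fold limit of log2 1. The study set the former thresholds on results of DESeq2 and PoissonDis. In the DESeq2 fit *Fcgr1* met them (log2 fold change -0.55, adjusted p = 1.01e-06, DESeq2). The number of pathway genes that passed was 36, against 3 at either of these thresholds, 21 with the replicate block and 20 to 48 with replicates left out (20 without *Adam17*-/- replicate 1, 48 without WT replicate 2). Of the receptor transcripts, 0 passed with library size only, with the replicate block or with any replicate left out. The replicate numbers are shared between the groups, but the labels tie them to nothing, and same-numbered libraries deviated with correlations of -0.124 and -0.0504 over genes. The block brought the genes that passed from 3983 to 2343, and leaving out replicates gave 2015 to 5400. The 5 ratios to *Fcgr2b* or to the activating sum moved by less than their spread, and other ratios and shares were not recomputed. No fit at reduced depth was run. The cause of these shifts was not tested.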

Other observations

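Within 100 kb of *Fcgr2b*, *Fcgr4*, *Fcgr3* or *Fcer1g*, 13 other genes were tested, of which 1 passed higher, 1 lower and 11 did not pass (15.4% passing, beside 31.7% of all genes, a difference that was not tested), and their median log2 fold change was -0.0031. *Ppox*, an enzyme of heme synthesis, rose by 0.56 on the log2 scale (SE 0.126, adjusted p = 0.00927, edgeR) from 36.1 to 53.4 CPM on average. *Atf6*, a transcription factor of the unfolded protein response, fell by 0.29 (SE 0.087, adjusted p = 0.0289, edgeR) from 100.1 to 81.7 CPM.

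Among markers of other cell types, 7 of 8 neutrophil markers passed higher, with log2 fold changes of 1.54 (*Elane*) to 2.18 (*Ltf*), and *Ngp*, *S100a8*, *S100a9*, *Ly6g* and *Camp* between these. *Siglecf* rose by 1.65 (adjusted p = 0.00055), *Ccr7* by 1.32 (adjusted p = 0.00673) and *Kit* by 1.10 (adjusted p = 0.0471, edgeR), each at a mean of under 13 CPM in either group. Of the macrophage markers, *Cd68* fell by 0.93, *Adgre1* by 0.66, *Lyz2* by 0.65, *Itgam* by 0.64 and *Cd14* by 0.54, while *Csf1r*, at -0.29 (adjusted p = 0.052), and *Mertk*, at -0.06 (adjusted p = 0.572, edgeR), did not pass. Of the mammary epithelial markers, *Epcam*, *Krt8* and *Krt14* had at most 3 counts in any library, *Krt5* was listed in none, and *Cdh1* was at 11.2 CPM in WT and 12.4 CPM in *Adam17*-/- cocultures (adjusted p = 0.422, edgeR).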
